A study of Mus musculus with 12 samples.

Results

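The genes described here are 37 transcripts that the mouse hepatocyte makes in quantity, read out in inguinal white adipose tissue (iWAT), the fat pad under the skin of the groin. They were taken by name from the raw count table, where each of the 37 names occurred once among 54134 genes, and all 37 were among the 15585 genes that passed the filter on low counts. The fat came from 12 male C57BL/6J mice injected through the tail vein at 8 weeks of age with 1e+12 genome copies of an AAV8 virus. In 6 mice the virus carried GFP and in 6 it carried Notum, an enzyme that inactivates Wnt ligands, and in both it was driven by TBG, a promoter active in hepatocytes. All mice ate chow for 4 weeks after injection and were fasted for 4 h before iWAT was collected. Every group therefore carried virus, and no uninjected mouse and no liver library entered the comparison. One library stands for each mouse, named below by its group and the number in its label, and the 12 libraries held 14711113 to 21618860 counted reads.

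Hepatocytes secrete most plasma proteins: albumin and other carriers, the apolipoproteins of circulating lipoproteins, the clotting factors and the main inhibitors of blood proteases. They also hold enzymes for urea synthesis, amino acid breakdown and drug oxidation at levels few other cells reach. Transcription factors of the HNF1, HNF4 and C/EBP families drive many of these genes through sites close to the start of transcription. Adipocytes are known to make a few of the same products, among them haptoglobin.

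The promoters of 27 of the 37 members were matched in RefSeq (GRCm38.p6). The letters GTTAAT, the core of the HNF1 site, were searched on both strands in the 250 bases before each start. They occurred in 8 of the 27 members (29.6%) against 7.49% of all 27025 genes with a promoter entry. The members were Alb, Fga, Fgb, Gc, Fabp1, Serpina1a, Serpina1b and Serpina1c. The sequences of Alb, the most abundant hepatocyte message, of Fgb and of the Serpina1a and Serpina1b pair are shown because the first stands for the carriers, the second for the clotting factors and the pair for copies that are hard to count apart. Capitals mark GTTAAT or its reverse complement ATTAAC.
Alb, chr5:90460620-90460869, plus strand: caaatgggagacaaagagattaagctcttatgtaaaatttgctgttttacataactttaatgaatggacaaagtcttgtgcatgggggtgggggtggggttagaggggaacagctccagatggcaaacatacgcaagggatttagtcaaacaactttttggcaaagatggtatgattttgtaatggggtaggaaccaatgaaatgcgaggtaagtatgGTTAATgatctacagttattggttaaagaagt
Fgb, chr3:83049864-83050113, minus strand: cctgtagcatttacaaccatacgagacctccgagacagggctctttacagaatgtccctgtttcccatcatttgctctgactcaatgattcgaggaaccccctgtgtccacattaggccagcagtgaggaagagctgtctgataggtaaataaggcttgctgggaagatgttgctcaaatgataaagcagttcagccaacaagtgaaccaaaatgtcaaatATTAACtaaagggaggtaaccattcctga
Serpina1a, chr12:103863620-103863869, minus strand: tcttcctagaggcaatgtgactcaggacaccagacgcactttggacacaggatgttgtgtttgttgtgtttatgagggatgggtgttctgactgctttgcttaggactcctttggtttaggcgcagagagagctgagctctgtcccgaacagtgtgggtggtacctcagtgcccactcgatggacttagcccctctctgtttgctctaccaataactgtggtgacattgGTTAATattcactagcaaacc
Serpina1b, chr12:103738190-103738439, minus strand: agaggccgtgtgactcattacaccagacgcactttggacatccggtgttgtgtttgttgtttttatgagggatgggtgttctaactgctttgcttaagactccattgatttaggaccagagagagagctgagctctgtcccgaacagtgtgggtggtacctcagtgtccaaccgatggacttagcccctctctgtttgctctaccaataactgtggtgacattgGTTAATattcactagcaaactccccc
The marked letters lie at -32 to -27 in Alb, at -29 to -24 in Fgb, at -21 to -16 in Serpina1a and at -26 to -21 in Serpina1b, counted from the start. The Serpina1a and Serpina1b sequences share an identical run of 72 bases that holds the marked letters. The looser C/EBP letters TTNNGCAA occurred in 9 of 27 members (33.3%) against 10.8% of genes, and the TATA letters TATAAA in 8 of 27 (29.6%) against 14.3%. The HNF4 letters CAAAGTCCA occurred in Cyp3a11 alone among the 27, against 0.451% of genes. Neither the full HNF1 palindrome nor the C/EBP letters TTGCGCAA occurred in a member, and they occurred in 0.0111% and 0.185% of genes. A match is a description of letters, not a measured site.

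Summed over the members, the transcripts were unevenly spread over the mice. Of the 37, 4 have known sources outside the liver, Hp, Trf and Cyp2e1 among them, and the other 33 are summed apart. The 33 took 1.09% of all counted reads in AAV-GFP-2013 (exact 95% binomial interval 1.08% to 1.09%), 0.249% in AAV-GFP-2014 and 0.136% in AAV-Notum-2041. They took 0.0657% in AAV-GFP-2022, 0.0325% in AAV-Notum-2032, 0.0206% in AAV-GFP-2012 and 0.0141% in AAV-GFP-2021. In the other 5 libraries they took 0.0105% (AAV-Notum-2033), 0.00740% (AAV-Notum-2034), 0.00622% (AAV-Notum-2042), 0.00565% (AAV-GFP-2011) and 0.00474% (AAV-Notum-2031, interval 0.00443% to 0.00507%). The highest 2 libraries were AAV-GFP and 4 of the lowest 5 were AAV-Notum, but the groups overlapped, with AAV-Notum-2041 above 4 AAV-GFP libraries and AAV-GFP-2011 below 5 AAV-Notum libraries. The intervals cover counting error only. In bulk tissue, more cells of a type and more RNA per cell cannot be told apart. Where the transcripts in these fat libraries came from was not tested.

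**Figure D1:**
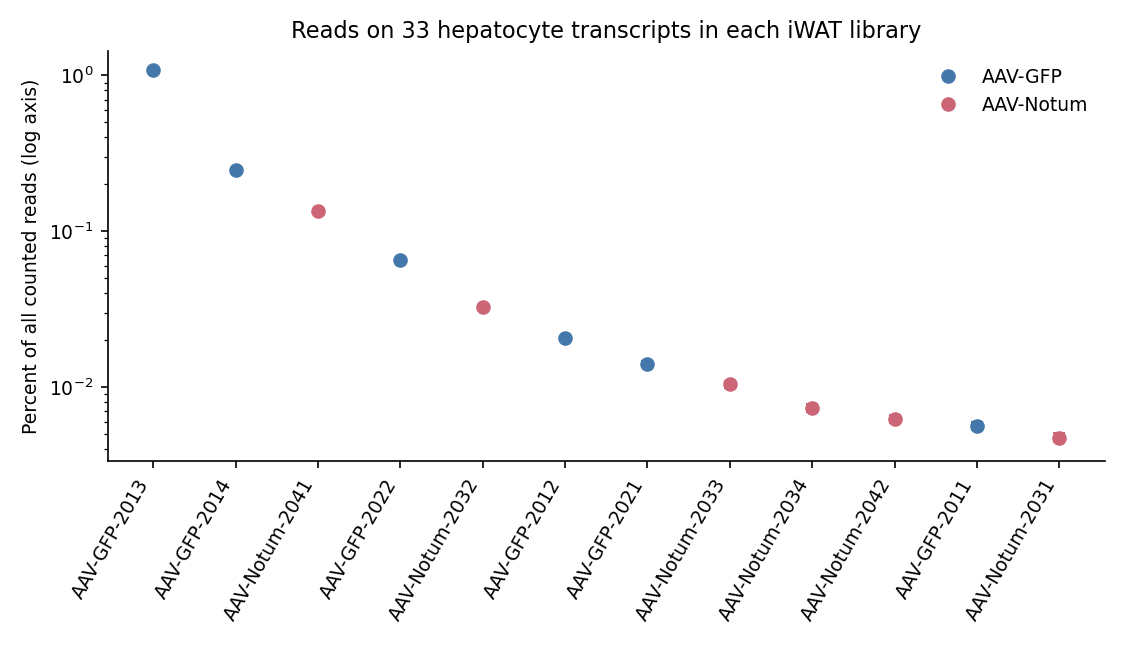
Percent of all counted reads on 33 members (the 37 without the 4 that have known sources outside the liver) in each of the 12 iWAT libraries, on a log axis, with exact 95% binomial intervals that are mostly smaller than the points. Values run from 1.09% in AAV-GFP-2013 down to 0.00474% in AAV-Notum-2031, and both groups are spread along the order.

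These percentages are shares of reads and not a fraction of liver tissue. A fraction of liver would need the share of these 33 genes in a liver library made the same way, and none is used here. What the members give without it is a lower limit and a relative scale. If every read on the 33 came from hepatocytes, at least 1.09% of the reads of AAV-GFP-2013 were hepatocyte reads. Adding 91 other genes listed as hepatocyte genes raised the figure for AAV-GFP-2013 to 1.59% and that for AAV-Notum-2041 to 0.231%. It raised the lowest library to 0.0547% too, because a few of the 91 had many reads in every library. Cyp2f2, a cytochrome P450, ranged from 2954 to 7404 reads and Apoc1, a small apolipoprotein, from 1356 to 3948.

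The members kept nearly fixed proportions to each other where they were abundant. Levels are given as CPM, counts scaled to library size with edgeR's TMM factors. For all 33, CPM was highest in AAV-GFP-2013, followed by AAV-GFP-2014, AAV-Notum-2041 and AAV-GFP-2022. For 30 of the 33, AAV-Notum-2032 was the fifth. AAV-GFP-2013 was the highest library for 34 of all 37 members, against 5.28% of genes tested. Among the 15585 genes tested, 147 (0.943%), the 33 included, had the same first 3 libraries in that order, and among 46 tested genes of the other hepatocyte list it was 37. With the CPM in AAV-GFP-2013 set to 100%, the median member stood at 27.8% in AAV-GFP-2014, 15.3% in AAV-Notum-2041, 5.90% in AAV-GFP-2022 and 2.88% in AAV-Notum-2032. In AAV-Notum-2041 the middle 50% of members lay between 13.9% and 16.2%, and in AAV-GFP-2014 the whole set lay between 21.8% and 67.2%. The median fell to 1.70% in AAV-GFP-2012, 1.23% in AAV-GFP-2021 and 0.415% in AAV-Notum-2034, and to 0.347% or less in the remaining 4, with the lowest, 0.0725%, in AAV-Notum-2042. In those last libraries single members spread widely, from 0% to 7.10% in AAV-Notum-2042.

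**Figure D2:**
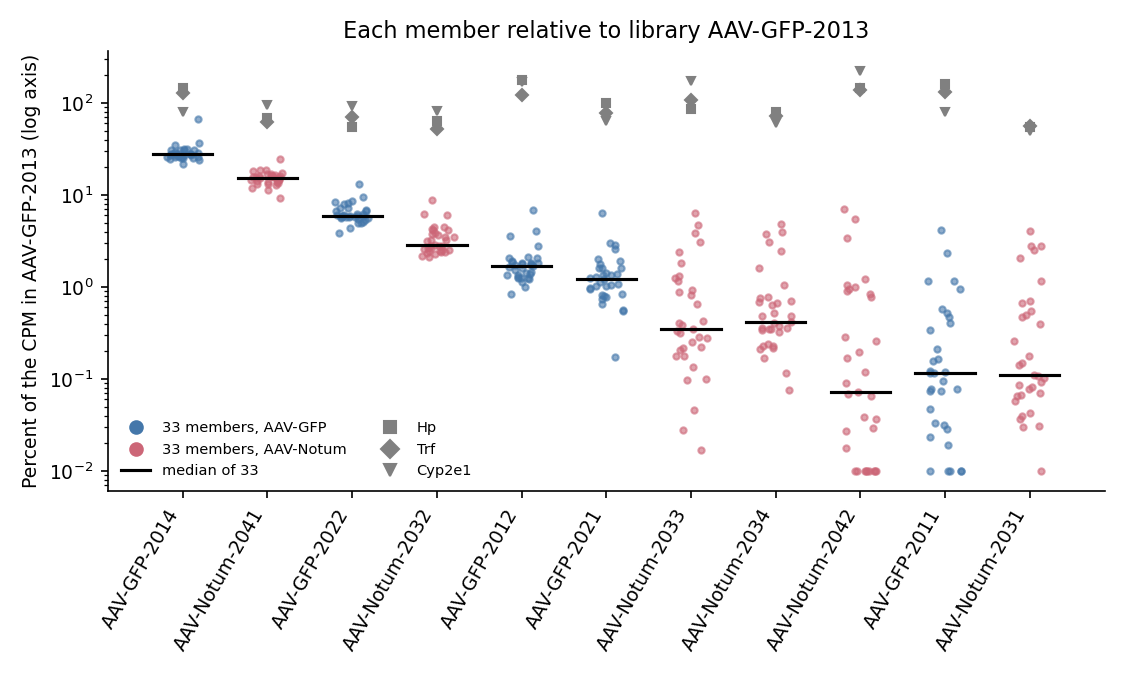
CPM of each member as a percent of its CPM in AAV-GFP-2013, on a log axis, for the other 11 libraries. Coloured points are the 33 members (values under 0.01% drawn at 0.01%), black lines are their medians and grey symbols are Hp, Trf and Cyp2e1. The points are tight around 27.8% and 15.3% in the first 2 libraries and spread out in the last 5, while the grey symbols lie above the coloured points in every library.

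Albumin (Alb, ENSMUSG00000029368, chr5:90460897-90476602, plus strand, GRCm38) is the main carrier protein of plasma. It had 785, 1771, 65022, 16159, 1451 and 3664 reads in AAV-GFP-2011, AAV-GFP-2012, AAV-GFP-2013, AAV-GFP-2014, AAV-GFP-2021 and AAV-GFP-2022. In AAV-Notum-2031, AAV-Notum-2032, AAV-Notum-2033, AAV-Notum-2034, AAV-Notum-2041 and AAV-Notum-2042 it had 351, 1731, 668, 445, 8508 and 463 reads. AAV-GFP-2013 and AAV-GFP-2014 were thus the highest and AAV-Notum-2031 the lowest, and no library was without Alb reads. Alb alone gave 0.406% of the reads of AAV-GFP-2013. Per kilobase of exon, it was also the most abundant member there, at 1625 CPM per kilobase, with Hp at 1502 and Cyp2e1 at 1447 and the next member, Apoa2, at 356.

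Apolipoprotein B (Apob, chr12:7977648-8016835, plus strand) is the structural protein of very low density lipoproteins. Its reads were 2, 66, 6637, 1821, 46 and 455 in the AAV-GFP libraries in the order above, and 3, 180, 1, 8, 830 and 0 in the AAV-Notum libraries. The range was wider than that of Alb, because Apob came down to 3 reads or fewer in 4 libraries that held 351 to 785 Alb reads. In the 5 libraries richest in members there were 8.05 to 10.3 Alb reads for each Apob read. In AAV-GFP-2012 there were 26.8 and in AAV-GFP-2021 31.5. In AAV-Notum-2034, AAV-Notum-2031, AAV-GFP-2011 and AAV-Notum-2033 the ratio was 55.6, 117, 392.5 and 668, and AAV-Notum-2042 had 463 Alb reads and no Apob read. A count of 0 allows up to 3 reads. The fixed ratio of the richest libraries therefore did not extend to the libraries with few reads, where Alb reads were in excess of those of Apob.

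**Figure D3:**
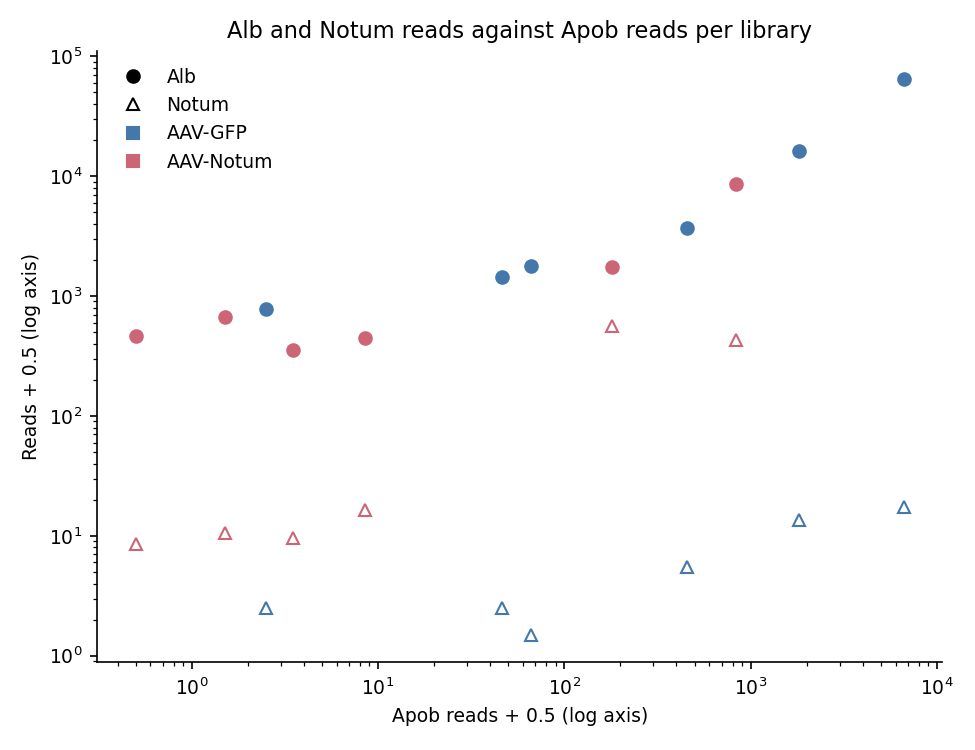
Reads of Alb (filled circles) and of Notum (open triangles) against reads of Apob in the same library, both with 0.5 added and on log axes, blue for AAV-GFP and red for AAV-Notum. Alb follows Apob at 8.05 to 10.3 reads for 1 in the 5 richest libraries and stays between 351 and 785 reads where Apob has 8 reads or fewer.

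Several other carriers and apolipoproteins came down to a few reads, as Apob did. Apoa1, the main protein of high density lipoproteins, had 7348 reads in AAV-GFP-2013 and 6 to 9 in its 3 lowest libraries. Ahsg, or fetuin-A, had 6208 reads in AAV-GFP-2013 and 1 in AAV-Notum-2042. Hpx, the heme carrier hemopexin, had 6517 reads in AAV-GFP-2013 and 5 to 7 in its 3 lowest libraries, and Ttr, which carries thyroxine, had 4002 and, in AAV-Notum-2042, 0. These genes were near absence in some fat libraries. The same held for Gc, the vitamin D binding protein (6021 reads in AAV-GFP-2013 and 2 in AAV-Notum-2042), for Ambp, the precursor of alpha-1-microglobulin and bikunin (2368 and 0), and for Apoh, or beta-2-glycoprotein I (1604 and 1). Apoa2, of high density lipoproteins, had 3266 and 5 reads in the same libraries, and Apoa5, which aids triglyceride clearance, had 1165 and 0. The second deposited table held 64.6% as many Apoa5 reads as the raw table. Apoc3, an inhibitor of lipoprotein lipase, was different, with 1093 reads in AAV-GFP-2013 and never under 27. Its gene lies 2466 bases from Apoa1, and in AAV-Notum-2042 it had 54 reads where Apoa1 had 6.

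Of the 7 clotting and kinin genes, all but Serpinc1 came down to 1 read or none in some library. Fga, Fgb and Fgg encode the chains of fibrinogen and lie together on chr3 (83007724 to 83049863). They had 4974, 3785 and 3051 reads in AAV-GFP-2013, and 1, 0 and 1 in AAV-GFP-2011. Plg, the precursor of plasmin, had 2838 and 0 reads in the same 2 libraries, and F2, prothrombin, had 1925 and 0. Kng1, which encodes kininogen, had 1674 and 6. Itih3, which encodes a heavy chain of the inter-alpha-trypsin inhibitor, is counted with the protease inhibitors. It had 1188 and 0 reads but also 55 in AAV-Notum-2031 and 49 in AAV-Notum-2034, where Fga had 4 and 11.

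Among the other protease inhibitors, Serpina3k had 11512 reads in AAV-GFP-2013 and 70 in AAV-GFP-2011. It kept 396 reads in AAV-Notum-2033 and 351 in AAV-Notum-2042, where Apob had 1 and 0. Serpina1a, Serpina1b and Serpina1c, copies of the alpha-1-antitrypsin gene on chr12, had 740, 2813 and 2251 reads in AAV-GFP-2013. In AAV-Notum-2031 they had 6, 91 and 2, so that Serpina1b exceeded Serpina1c 45.5 to 1 there. Of the 50-base words in their transcripts, 67.4%, 35.8% and 79.3% occur in another gene, so the division of reads among the copies is uncertain. The second deposited table held 69.9% as many Serpina1c reads as the raw table. Serpinc1, antithrombin, grouped with the clotting genes, had 20 to 1996 reads, and 58.8% of its words are shared with the overlapping gene Zbtb37. Mup20 and Mup3, major urinary proteins grouped with the carriers, had 1281 and 6436 reads in AAV-GFP-2013, with 50.5% and 15.6% of words shared, and Mup20 had 0 reads in AAV-Notum-2031 while Mup3 had 19.

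Among the enzymes, Cyp3a11, a drug-oxidising cytochrome P450, had 5713 reads in AAV-GFP-2013 and 0 in AAV-Notum-2042. Cps1, which starts the urea cycle in mitochondria, had 4043 and 1 in the same 2 libraries, and Tat, tyrosine aminotransferase, 975 and 0. Cyp2c29, another cytochrome P450, departed from the common proportions. It stood at 67.2% of its AAV-GFP-2013 level in AAV-GFP-2014, against a median of 27.8%, and at 24.7% in AAV-Notum-2041, 13.1% in AAV-GFP-2022 and 8.73% in AAV-Notum-2032, the highest of the 33 in each. Hpd, of tyrosine breakdown, was never under 34 reads. Fabp1, the liver fatty acid binding protein, grouped with the carriers, had 2446 reads in AAV-GFP-2013 and 2 in AAV-GFP-2011, but 33, 39 and 41 in AAV-Notum-2031, AAV-Notum-2033 and AAV-Notum-2034.

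Apoc3, Hpd, Serpina3k and Alb belong to 7 of the 33 with 10 or more reads in every library, together with Serpina1b, Serpinc1 and Mup3. The other 26 had a library with fewer than 10 reads, and 13 of the 33 had a library with none. Tdo2 is among the 26 with a lowest count of 7, but its lowest count was 24 in the second deposited table. The division into 7 and 26 was made after the values were seen. The 26 alone took 0.525% of reads in AAV-GFP-2013, 0.128% in AAV-GFP-2014 and 0.0666% in AAV-Notum-2041. At the low end they took 0.00107% in AAV-Notum-2031, 0.000497% in AAV-Notum-2042 and 0.000421% in AAV-GFP-2011, the last resting on 80 reads.

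**Figure D4:**
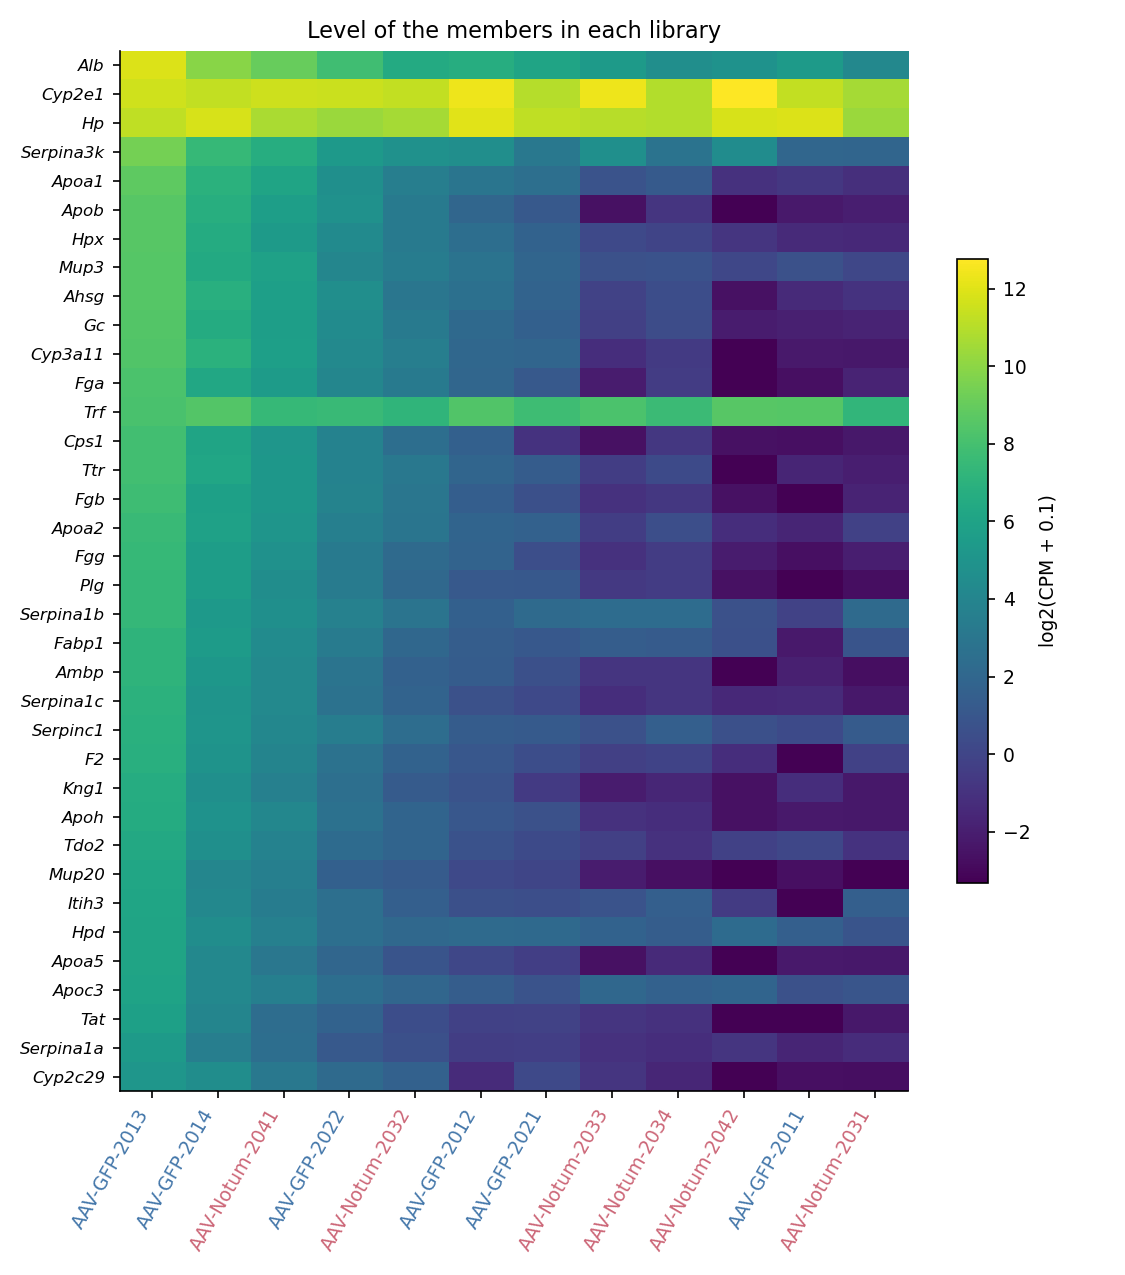
Level of 36 members (rows, ordered by level in AAV-GFP-2013) in each library (columns, ordered by the percent of reads on the 33; blue labels AAV-GFP, red labels AAV-Notum), as log2(CPM + 0.1). Cyp2e1, Hp and Trf are bright across all 12 columns, whereas the other rows fade from left to right.

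Hp, Trf and Cyp2e1 did not follow this order. Hp, haptoglobin, binds free hemoglobin and had 69176, 72379, 41225, 59324, 52360 and 21531 reads in the AAV-GFP libraries and 26089, 29444, 31590, 34047, 26992 and 54520 in the AAV-Notum libraries. Its lowest CPM was 30.8% of its highest, which was in AAV-GFP-2012. Trf, transferrin, the iron carrier, ranged from 2775 to 6493 reads, with the lowest CPM at 37.9% of the highest. Both had a level of their own in fat by the rule used here, a lowest library at or above 25% of the highest. For Trf, 79.8% of its words are shared with Gm20425, an overlapping annotation. Cyp2e1, the ethanol-oxidising cytochrome P450, missed the rule by a little, at 22.2%. Its reads ran from 30550 to 107811, with the most in AAV-Notum-2042, the library with the lowest median over the 33.

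Likeness to Alb was measured as the standard deviation, over the 12 libraries, of the log2 ratio of a gene's CPM to that of Alb. A smaller value means a steadier ratio. A gene with the same CPM in every library would get the standard deviation of Alb's own log2 CPM, 2.35. Over the 32 members other than Alb and the 4, the median was 1.10, from 0.37 for Tdo2, which opens tryptophan breakdown, to 1.96 for Apob, against a median of 2.38 over all 15584 other genes tested. After Tdo2 the nearest members were Serpina1a at 0.51, Mup3 at 0.62, Serpina1c at 0.78 and Serpinc1 at 0.80. The farthest were Cyp2e1 at 2.42, Hp at 2.39 and Trf at 2.35, then Apob at 1.96 and Cyp3a11 at 1.83. Libraries with few reads enter these values too, and there Alb reads were in excess of those of Apob. Outside the members the nearest were Abcc2 at 0.48, Cfi at 0.48, Cyp2c70 at 0.50, Itih2 at 0.53 and Fetub at 0.56. Abcc2 exports conjugated bilirubin into bile, and Cfi is complement factor I. These values are descriptions over 12 libraries of the same tissue, and genes in 1 library share its depth.

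Markers of other cells moved with the order only in part. Clec4f, a receptor particular to Kupffer cells, the resident macrophages of liver, had 137, 58, 25, 7 and 5 reads in AAV-GFP-2013, AAV-GFP-2014, AAV-Notum-2041, AAV-GFP-2022 and AAV-Notum-2032, and 0 to 2 elsewhere. Of the other 5 Kupffer genes listed, Vsig4 had its most reads in the same first 2 libraries (47 and 16), while Marco, Timd4, Cd5l and Folr2 did not, and the summed level of the 6 ran from 29.9 to 295 CPM in AAV-GFP and from 107 to 222 CPM in AAV-Notum. On the mammary and skin epithelium list, Krt18 and Krt8, keratins of simple epithelia, had 133 and 72 reads in AAV-GFP-2013. They had 52 and 33 in AAV-GFP-2014 and 45 and 19 in AAV-Notum-2041. The rest of that list showed no such order: Krt10 had 16 to 53 reads and Krt5, Krt14, Krt1, Csn3 and Lalba 9 or fewer. On the cholangiocyte list, Krt7 had 16, 1 and 9 reads in these 3 libraries and Krt19 13, 10 and 17. Hnf4a, the hepatocyte transcription factor and not a marker of another cell, had 817, 221 and 114 there against 0 in AAV-Notum-2042. Cholangiocyte markers summed to 2.15 to 5.66 CPM over all libraries. Lymphoid markers reached 1765 CPM in AAV-GFP and ran from 567 to 2386 CPM in AAV-Notum, and AAV-GFP-2014, next to the top in hepatocyte reads, was the lowest of all. Skeletal muscle markers were highest, at 4387 CPM, in AAV-Notum-2042. Adipocyte markers were abundant in all 12 libraries, at 33991 to 77348 CPM. The RNA integrity number was 6.6, 6.8 and 7.4 in the 3 libraries richest in members and 5.7 to 7.6 over all 12. The RNA of all libraries but AAV-GFP-2012 was isolated on the same day. When the integrity number was a term of the group comparison below, the median log2 fold change of the members was -3.55 in place of -2.78, and 0 members were lower at an unadjusted p under 0.05, against 5.95% of genes. The part of the other markers and of the isolation day in the members' levels was not tested.

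The comparison of virus groups asks whether the members differed in fat between mice whose livers were given Notum and those given GFP. None of the 37 passed the test. Alb ran from 44.0 CPM, through a median of 166, to 3805 in AAV-GFP and from 17.8, through 37.1, to 523 in AAV-Notum, so the groups overlapped. Its means were 868 ± 1480 (SD, n = 6) and 122 ± 198 CPM (SD, n = 6), with a log2 fold change of -2.83 (SE 1.26) in AAV-Notum, an unadjusted p of 0.0437 and a Benjamini-Hochberg adjusted p of 0.336 by edgeR's quasi-likelihood test. The exact two-sided permutation test of its log2 CPM over all 924 assignments gave p = 0.108. Apob ran from 0.112, through 16.0, to 388 CPM in AAV-GFP and from 0, through 0.303, to 51.1 CPM in AAV-Notum, with a log2 fold change of -3.12 (SE 1.77, edgeR adjusted p 0.416).

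Across the 37, 36 log2 fold changes were below 0, with a median of -2.78, where 48.8% of all genes tested were below 0 and their median was 0.01. The 33 members had the same 4 libraries highest, in the same order, so these signs are not separate observations. By edgeR, 0 of 37 members passed an adjusted p of 0.05, with 0.33 the smallest, where 0.0513% of genes tested were lower and 0% were higher. At an unadjusted p under 0.05, 5 members were lower (13.5%), against 9.54% of genes tested: Tat, Hpd, Alb, Serpina1a and Serpinc1, with log2 fold changes of -3.36 (SE 1.45), -1.91 (SE 0.82), -2.83 (SE 1.26), -2.80 (SE 1.26) and -2.43 (SE 1.12). DESeq2 also called 0 members after adjustment, where it called 1.12% of genes lower and 0.247% higher. At an unadjusted p under 0.05 it gave 18 members lower (48.6%), against 5.87% of genes. The DESeq2 shares are over 31947 genes with any read, a wider set than the 15585 tested by edgeR. No member had all AAV-Notum libraries below all AAV-GFP libraries, a split that 0.693% of genes tested showed, and none the reverse, which 0.398% showed. The exact permutation p over the members ran from 0.108 to 0.848, where the design allows 0.00216.

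By role, all 17 carriers and apolipoproteins had log2 fold changes below 0 (median -2.78, -3.19 to -0.36), as did all 7 clotting and kinin genes (median -2.85) and all 5 protease inhibitors (median -2.27), and 7 of the 8 enzymes (median -2.54). None of these passed the test. Of all genes tested, 48.8% had log2 fold changes below 0. These classes and most of the other hepatocyte genes share a library order, so their signs are not separate observations. Hp, with 1326, 2976 and 4310 CPM as the lowest, median and highest of AAV-GFP and 1326, 1793 and 3529 of AAV-Notum, had a log2 fold change of -0.57 (SE 0.31), Trf one of -0.36 (SE 0.26) and Cyp2e1 one of 0.22 (SE 0.38). Among the other hepatocyte genes, 43 of the 46 tested had log2 fold changes below 0 by edgeR and none passed after adjustment, while DESeq2, which tested 89, called 1 lower, against 1.12% of genes, and edgeR without AAV-GFP-2022 called 1 lower (adjusted p 0.0495), against 0.93% of genes.

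The size of the difference rested on single libraries. Without AAV-GFP-2013 the median over the 37 was -1.15 and 0 members were lower at an unadjusted p under 0.05, against 11.4% of genes, or after adjustment, against 0.115% of genes lower and 0% higher. Without AAV-Notum-2041 the median was -4.67 and 34 were lower at that level, against 8.58% of genes, with 0 after adjustment, against 0.019% of genes. Without AAV-GFP-2011, 17 were lower at that level, against 7% of genes. With AAV-GFP-2013, AAV-GFP-2014 and AAV-Notum-2041 all left out, a choice made after the values were seen, 34 members were tested, their median was -1.22 and 1, Alb, was lower at an unadjusted p under 0.05 (0.033), or 2.94% of members against 6.95% of genes.

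**Figure D5:**
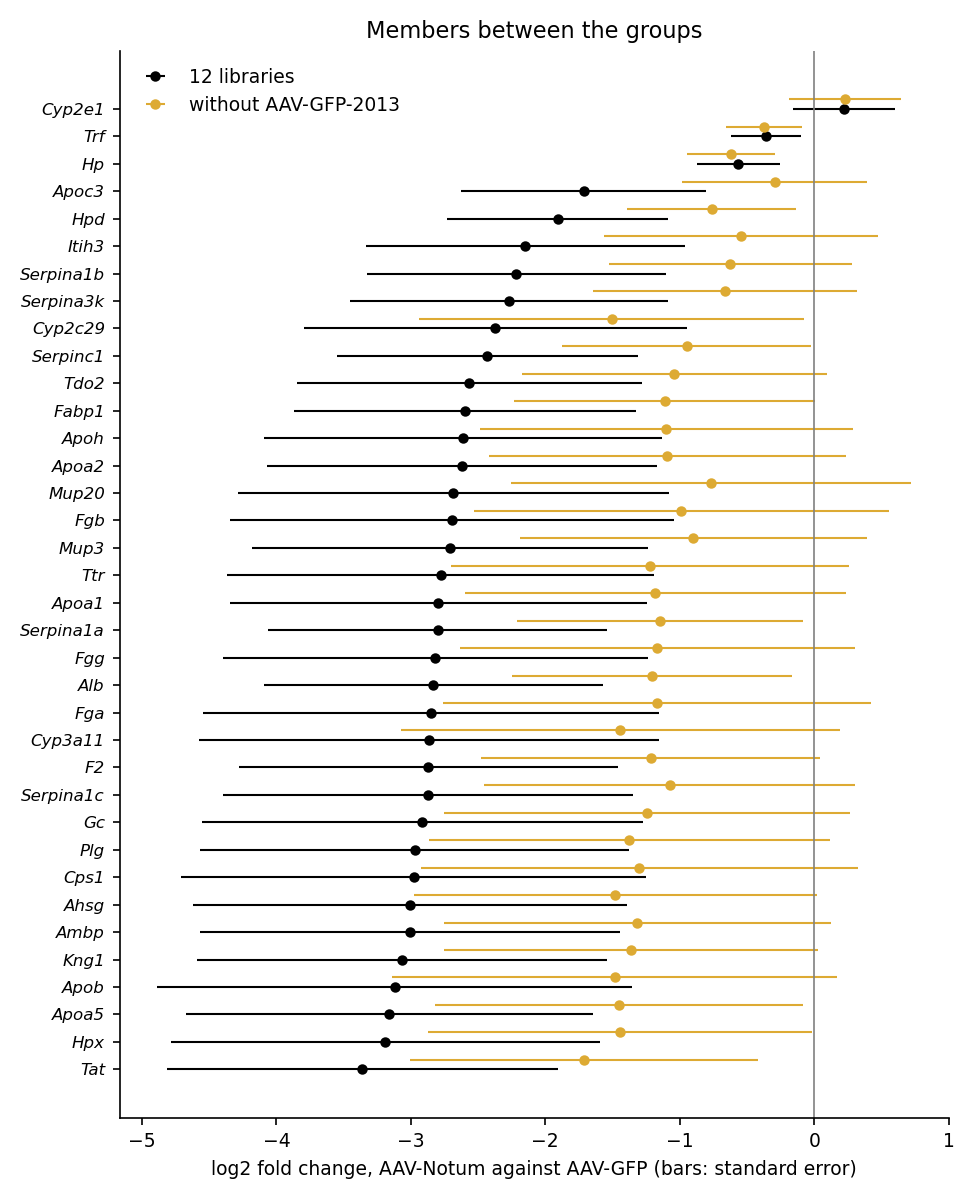
log2 fold change of 36 members in AAV-Notum against AAV-GFP, with its standard error, from all 12 libraries (black) and without AAV-GFP-2013 (yellow). The black points of 33 members lie between -3.36 and -1.71 with long bars, Hp, Trf and Cyp2e1 lie near 0, and leaving out the 1 library brings the median over all 37 members from -2.78 to -1.15.

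Notum itself, which the virus places in hepatocytes, checks the labels only indirectly in fat. It had 2, 1, 17, 13, 2 and 5 reads in the AAV-GFP libraries and 9, 560, 10, 16, 433 and 8 in AAV-Notum-2031, AAV-Notum-2032, AAV-Notum-2033, AAV-Notum-2034, AAV-Notum-2041 and AAV-Notum-2042. The high values, in AAV-Notum-2032 and AAV-Notum-2041, fell in the 2 AAV-Notum libraries with the most reads on the 33 members, and the other 4 AAV-Notum libraries overlapped with AAV-GFP-2013 and AAV-GFP-2014. Its log2 fold change was 4.64 (SE 1.32), with an edgeR adjusted p of 0.168 and an exact permutation p of 0.0411, and the adjusted p by DESeq2 was 0.00872. For each Apob read there were 3.11 Notum reads in AAV-Notum-2032, 0.522 in AAV-Notum-2041 and 0.00256 in AAV-GFP-2013. The 2 AAV-Notum libraries were thus in a different order for Notum than for the members. Of the words in the Notum transcript, 31.7% are shared with other genes, and the second deposited table held 734 Notum reads where the raw table held 1076.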

How the data were processed

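RNA of iWAT from 12 mice was sequenced, 1 library a mouse. The authors deposited a table of raw read counts per gene, used for every result, and a table of log2 normalized values, from which whole reads were recovered as an alternative (100% whole within 0.02). The submitters' processing notes name STAR 2.3.1, FastQC and DESeq2. The counting program and strand setting are not given in the sources used here, so overlapping genes are uncertain. One member's own values are not reported here. Members and lists were chosen with earlier results of these data known. Counts were filtered with filterByExpr (minimum count 10, total 15) and tested with edgeR 4.0.16 (TMM, quasi-likelihood, Benjamini-Hochberg) in R 4.3.3, after tests on simulated data; DESeq2 1.42.0 and limma 3.58.1 were alternatives. Log ratios used a prior count of 2. Gene positions follow GENCODE on GRCm38, and 50-base words were compared between its transcripts. Named were the 10 most abundant members, the 5 nearest to and the 5 farthest from Alb in ratio, members with an unadjusted p under 0.05, the Serpina1 and Mup copies, Notum and the 5 non-members nearest to Alb; others were chosen after their values were seen.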

Additional observations from a re-analysis of the deposited data

Results flagged for a closer look

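In AAV-GFP, the percent of reads on the 33 members in AAV-GFP-2013 (1.0873) stood apart from the other 5 libraries, at 0.00565 to 0.249. The percent on all 37 members did so in the same library (1.7152 against 0.479 to 0.942). In AAV-Notum, the percent on the 33 in AAV-Notum-2041 (0.1355) stood apart from 0.00474 to 0.0325, and so did the log2 CPM of Fabp1 (4.4444 against 0.62 to 2.05). The gap to the nearest library was in each case above Dixon's 95% critical value for 6 samples, for Fabp1 and for the 37 by little. In all, 80 groups were examined and 4 stood apart, and 4 would be expected by chance. The 4 all fell in AAV-GFP-2013 or AAV-Notum-2041, and the 37 include the 33, so they are not independent. The match in number therefore does not tell whether any single gap is chance. The cause was not tested.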

How the results depend on the processing

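No paired analysis was possible because the groups share no replicate numbers. The count of 0 members past an adjusted p of 0.05 held in both directions under every alternative run. For DESeq2 and the filter of 1 count, the shares of genes given next are over 31947 genes, against 15585 with the main filter. The count lower at an unadjusted p under 0.05, 5 as reported, was 18 with DESeq2 (5.87% of genes were lower at that level), 0 with limma-voom (8.52%), 8 with a filter of 1 count in all (5.88%), 3 of 10 tested with 10 counts in every library (10.4%), 0 with the RNA integrity number as covariate (5.95%), 1 without the 3 richest libraries (6.95%, chosen after seeing the data), and 0 to 34 when single libraries were left out (6.67% to 13.6%). The median share of reads, 0.730% in AAV-GFP and 0.537% in AAV-Notum over all 37, was 0.0432% and 0.00893% without the 4 members with other sources, and these became 0.119% and 0.0776% with the other hepatocyte genes added. The AAV-GFP median of 0.0432% became 0.0206% without AAV-GFP-2013, AAV-GFP-2014 or AAV-GFP-2022 and 0.0657% without AAV-GFP-2011, AAV-GFP-2012 or AAV-GFP-2021, each left out singly. The median likeness to Alb, 1.10, was 1.48 with a prior count of 0.5 and 0.95 against the summed reads of the other members, an alternative chosen after seeing the data. The log2 fold change of Cyp2e1, 0.22, ran from -0.091 (without AAV-Notum-2042) to 0.45 (without AAV-GFP-2012) when single libraries were left out. Low libraries rest on few reads, so ratios there carry large counting error. The cause of these shifts was not tested.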

Other observations

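Cela1, an elastase on the pancreatic list, had 71 to 272 reads in every library and made up most of that list's sum, whereas the other pancreatic markers had 33 reads or fewer. Pnlip, pancreatic lipase, had 33 reads and Ctrb1, a chymotrypsinogen, 21 in AAV-Notum-2042, 5 and 8 in AAV-Notum-2031 and 0 to 3 in the rest. Kap, a kidney androgen-regulated protein, had 21 reads in AAV-Notum-2032 and 0 to 2 elsewhere. On the same kidney list, Lrp2 had 24 reads there and 0 to 9 elsewhere, and Slc34a1 had 9 and 0 to 2. Slc22a6 had 2 reads there and 0 elsewhere. Aqp2 and Slc12a3 had reads in most libraries, and Umod and Slc12a1 had none. Fabp2, the intestinal fatty acid binding protein, had 30 and 21 reads in AAV-GFP-2013 and AAV-GFP-2014. It had 4 in AAV-Notum-2041, 2 in AAV-GFP-2022 and 0 or 1 elsewhere, an order like that of the members. Cdx1, Cdx2 and Alpi had none in any library. Over the whole lists, pancreatic acinar markers summed to 4.62 to 16.2 CPM, kidney tubule markers to 0.280 to 4.19, intestinal markers to 0.677 to 2.57, mammary and skin epithelium markers to 1.59 to 14.8 and erythroid markers to 283 to 1253. Macrophage markers summed to 521 to 1758 CPM and endothelial markers to 546 to 919 CPM, and adipose progenitor markers to 899 to 1490 CPM.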
